A study of Mus musculus with 6 samples.

Results

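The BCL2 family was followed through 18 probes for 10 genes, chosen as the non-control probes whose gene name in the scanner tables was Bcl2, Bcl2l1, Mcl1, Bax, Bak1, Bcl2l11, Bad, Bid, Bbc3 or Pmaip1. They stand among 41174 probes with 28090 gene names on the array, of which 27418 probes passed the filter on signal and missing values, and all 18 family probes passed it. Each of the 6 2-colour Agilent microarrays carried RNA of resting splenic CD4 T cells treated with vasoactive intestinal peptide (VIP) in one dye and RNA of untreated cells in the other. The cells of both groups came from C57BL/6J mice, males and females 6 to 32 weeks old, and 5 to 10 spleens were pooled for a sample before CD4 cells were taken with magnetic beads. VIP was labelled with Cy5 on replicates 1, 3 and 5 and with Cy3 on replicates 2, 4 and 6. No label used here states the dose of VIP or how long the cells were treated. The comparison asks how the transcriptome of resting CD4 T cells differs with VIP.

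VIP is a neuropeptide that acts on T cells through G protein-coupled receptors linked to cyclic AMP. Proteins of the BCL2 family control the permeability of the outer mitochondrial membrane: survival proteins such as BCL2 and MCL1 hold back the pore-forming effectors BAX and BAK, and the BH3-only proteins, which share a single short motif with the others, bind the survival proteins or the effectors and start apoptosis. In resting T cells the balance between BCL2, which depends on interleukin 7, and the BH3-only protein BIM is known to set how long a cell lives.

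The probes that carry the comparison are printed 5′ to 3′ as in the scanner tables, each 60 bases long, with positions on mm9. Those of Bcl2l11, the gene of BIM, lie on the plus strand of chromosome 2. A_52_P158527, the brighter, is listed at chr2:127988051-127988110, and A_51_P484880 upstream of it at chr2:127972893-127983988, an interval of 11096 bases for a probe of 60 bases.
Bcl2l11 A_52_P158527: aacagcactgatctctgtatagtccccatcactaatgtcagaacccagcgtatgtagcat
Bcl2l11 A_51_P484880: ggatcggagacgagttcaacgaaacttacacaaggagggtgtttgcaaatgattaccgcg
The probes of Bcl2 lie on the minus strand of chromosome 1, up to 174 kb apart, at chr1:108608970-108609029 (A_51_P380013, the brightest), chr1:108607310-108607369 (A_52_P438280) and chr1:108434793-108434852 (A_52_P534870). They are shown because Bcl2 came nearest to a call among the survival genes and its probes lie far apart in the gene.
Bcl2 A_51_P380013: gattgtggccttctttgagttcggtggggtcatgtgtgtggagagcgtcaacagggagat
Bcl2 A_52_P438280: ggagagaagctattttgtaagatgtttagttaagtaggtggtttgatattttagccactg
Bcl2 A_52_P534870: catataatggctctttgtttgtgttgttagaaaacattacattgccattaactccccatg
The single probe of Bbc3, the gene of the BH3-only protein PUMA, lies on the plus strand at chr7:16903403-16903462.
Bbc3 A_51_P248122: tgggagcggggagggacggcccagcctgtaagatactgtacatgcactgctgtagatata
No exon annotation of this build was used, so the probes are not placed in exons or UTRs here.

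All 18 family probes were well above background in both channels of all 6 arrays, and none was saturated. Over the whole array, 59.1% to 67.8% of probes were well above background in Cy3 and 65.5% to 79.0% in Cy5, and the scanner software marked 1.93% to 8.96% of spots as outliers, which were left out. All 9 T cell markers were well above background in every sample. Markers of other cells were also detected in every sample, 6 of 7 for B cells and 5 of 6 for macrophages. So were 2 of 2 for CD8 T cells and 3 of 3 for plasma cells. Of those for erythroid cells 3 of 4 were, and of those for neutrophils 3 of 5. The log2 of the summed intensity of B cell markers ran from 13.51 to 14.56 in VIP-treated and from 13.71 to 14.67 in untreated samples. That of macrophage markers ran from 14.52 to 15.87 in VIP-treated and from 14.29 to 15.88 in untreated samples. No tested marker of any of the lists was called. Single arrays could differ: the neutrophil marker S100a9 was higher with VIP by 1.6 on replicate 6 and lower, at -0.67, on replicate 3 (log2). Some markers did not pass the filter, and 8 of 9 T cell, 6 of 7 B cell and 5 of 6 macrophage markers were tested. The part of these other cells in the family's values was not tested. On replicates 3 and 6 the sex-linked transcripts Xist, Ddx3y, Eif2s3y and Kdm5d differed between the VIP-treated and the untreated sample, by up to 6.15 and 4.79 on the log2 scale, against at most 0.37 on the other arrays. The called genes, and Bcl2 and Bbc3, are also given on the 4 matched arrays.

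Bcl2l11 was the only one of the 10 genes with a called difference, and both of its probes were higher with VIP. A probe is said to be called where its p from limma's linear model of the log2 ratio of VIP over untreated, with a term for the dye, was under 0.05 after Benjamini-Hochberg adjustment over all 27418 probes. Of the 18 family probes 2 were called higher and 0 lower. Over all probes 770 were called, or 2.81%, of which 467 (1.7% of those tested) were higher and 303 (1.11%) lower. The split moved to 396 higher and 134 lower with median centring in place of loess, and to 31 and 13 with the scanner software's processed signals. At an unadjusted p under 0.05 the family had 2 probes higher and 2 lower, which is 22.2% of its probes, against 15.8% of all probes. The median ratio of the family probes was -0.012 on the log2 scale, against 5.8e-05 over all probes, and the median of its absolute ratios was 0.074, against 0.048. The array total moved with single arrays, to 317, 296 and 444 called probes without replicate 1, 5 or 6.

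**Figure D1:**
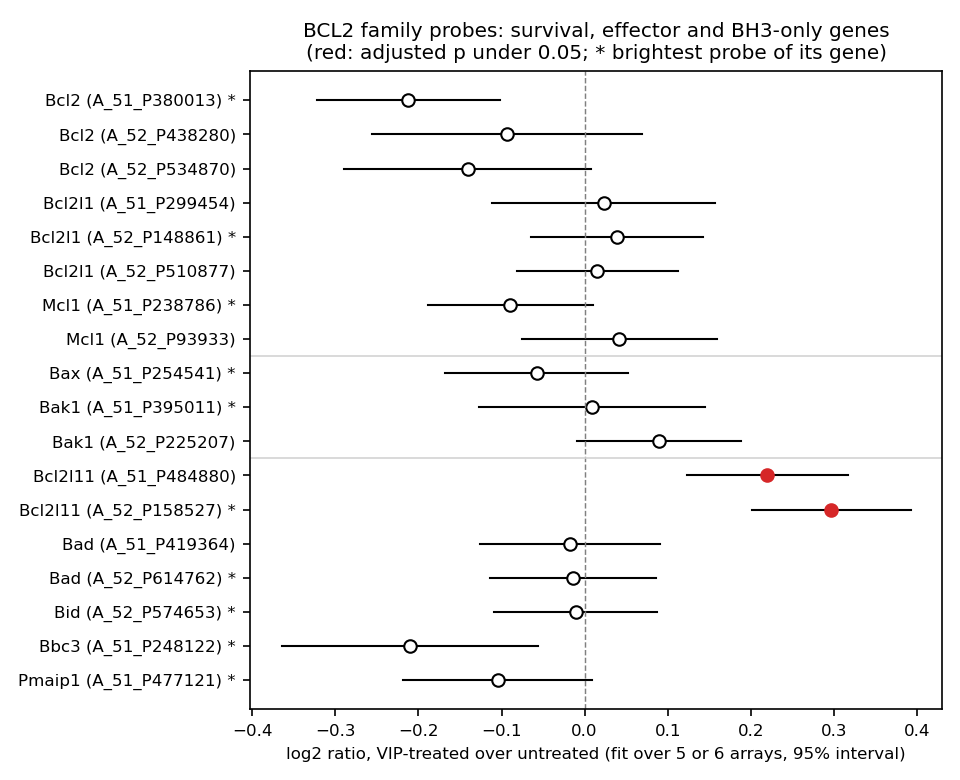
Fitted log2 ratio of VIP-treated over untreated cells for each of the 18 probes, with its 95% interval, ordered by role: survival genes above, pore-forming effectors in the middle, BH3-only genes below. Filled red points are the 2 called probes, both of Bcl2l11, at 0.30 and 0.22; the other points lie between -0.21 and 0.09.

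Bcl2l11 encodes BIM, the BH3-only protein that limits the survival of lymphocytes and binds all of the survival proteins. On the brighter probe the normalised log2 intensity ran from 13.40 to 13.87 with a median of 13.65 in VIP-treated samples and from 13.20 to 13.44 with a median of 13.37 in untreated samples. The groups overlapped only at their edges, where the lowest VIP-treated sample, of replicate 4, lay below the untreated samples of replicates 3 and 6. On every array the VIP-treated sample was the higher of the pair, by 0.48, 0.16, 0.43, 0.051, 0.40 and 0.26 on the log2 scale for replicates 1 to 6. The ratios with VIP in Cy5 were all larger than those with VIP in Cy3. The fitted ratio was 0.30 ± 0.043 (SE, n = 6), with a 95% interval of 0.20 to 0.39, or 1.23-fold (limma, adjusted p = 0.0054). Each slide held 1 array of either dye orientation, and the ratio within slides was 0.32, 0.24 and 0.33. In cells taken in bulk, a change in the share of cells that express a gene and a change in RNA per cell cannot be told apart.

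The second Bcl2l11 probe gave the same direction. Its level ran from 8.28 to 8.63 with a median of 8.48 in VIP-treated samples and from 8.04 to 8.45 with a median of 8.21 in untreated samples. The ranges overlapped, while within arrays the VIP-treated sample was again the higher on 6 of 6, by 0.10 to 0.41. The fitted ratio was 0.22 ± 0.044 (SE, n = 6; limma, adjusted p = 0.025), and 0.24, 0.14 and 0.28 within slides. The brighter minus the second probe came to 0.077, with a 95% interval of -0.026 to 0.18 and an adjusted p of 0.61 in a limma fit over 8187 pairs of probes of 1 gene, of which 8 (0.0977%) were called.

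The brighter Bcl2l11 probe was called in 14 of 18 alternative settings, where the mean of the gene's probes counted for it in the setting that averages them. The second was called in 7 of the 16 that keep more than 1 probe per gene. With the scanner software's processed signals, with the authors' deposited values, without a dye term and without the pairing by array neither was called (limma, adjusted p for the brighter probe 0.11, 0.084, 0.095 and 1), although its ratios stayed between 0.27 and 0.30. The second probe was no longer called without replicate 1, 2, 5 or 6 (limma, adjusted p = 0.11, 0.060, 0.10 and 0.090). On the 4 arrays whose samples matched in sex-linked transcripts the ratios were 0.27 (limma, adjusted p = 0.028) for the brighter probe and 0.20 (limma, adjusted p = 0.093) for the second.

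**Figure D2:**
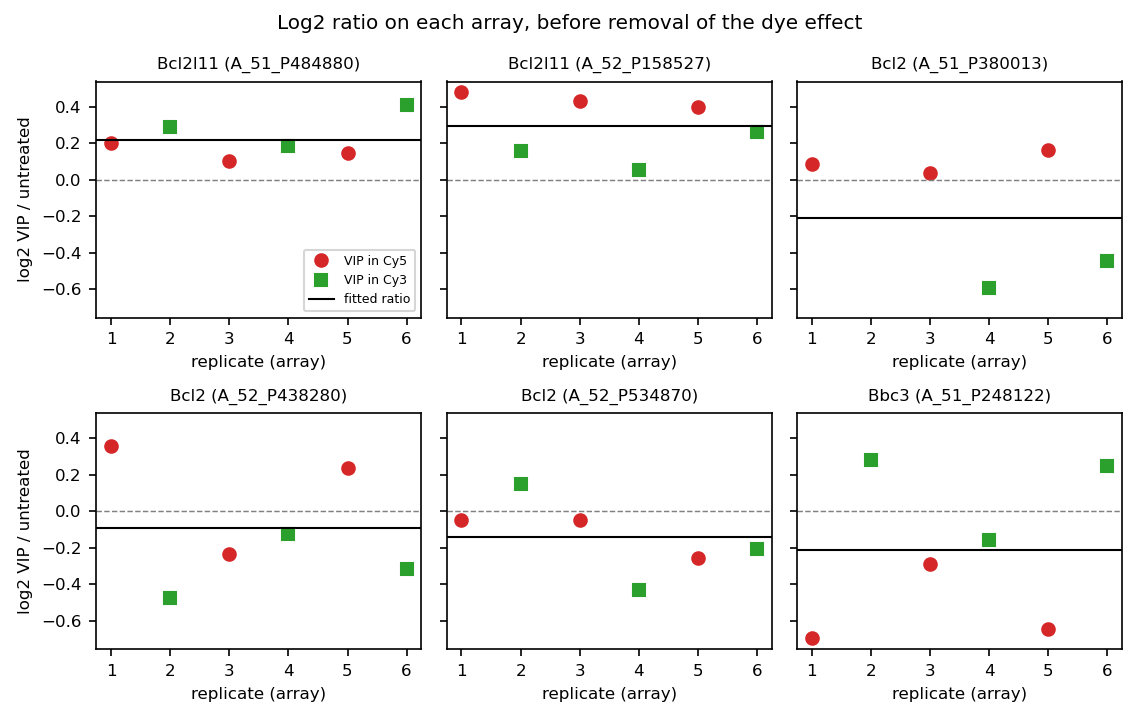
Log2 ratio of VIP-treated over untreated cells on each of the 6 arrays for the probes of Bcl2l11, Bcl2 and Bbc3, with the dye of the VIP-treated sample shown by colour and shape and the fitted ratio as a line. Both Bcl2l11 probes lie above 0 on all arrays, from 0.051 to 0.48, whereas the Bcl2 probe A_51_P380013 lies above 0 with VIP in Cy5 and below 0 with VIP in Cy3, and the Bbc3 probe is above 0 on replicates 2 and 6 only.

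Among the survival genes none was called, and Bcl2 came nearest. On its brightest probe the level ran from 11.41 to 13.25 with a median of 12 and a mean of 12.07 in VIP-treated samples. Untreated samples ran from 11.37 to 13.70 with a median of 11.92 and a mean of 12.22. Both cover the 5 arrays on which the spot was not an outlier. With VIP the median was thus the higher and the mean the lower. The groups overlapped almost wholly, and replicate 6 held the highest sample of each. The VIP-treated sample was higher by 0.086, 0.037 and 0.16 on replicates 1, 3 and 5, with VIP in Cy5, and lower, at -0.59 and -0.44, on replicates 4 and 6, with VIP in Cy3. The fit assigned 0.31 to the dye (Cy5 over Cy3), after which the ratio was below 0 on all 5 arrays, between -0.29 and -0.14. The fitted ratio was -0.21 ± 0.049 (SE, n = 5), with an unadjusted p of 0.0016 and an adjusted p of 0.055 (limma), so it missed the threshold. It was called in 1 of 18 alternative settings, that without a filter on signal (limma, adjusted p = 0.048), and stood at -0.15 without the dye term (limma, adjusted p = 0.79) and at -0.24 on the matched arrays (limma, adjusted p = 0.14).

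The other Bcl2 probes gave smaller negative ratios. The array design lists each of the Bcl2 probes under a different transcript entry. The level of A_52_P534870, which has 10 spots on each array, ran from 11.11 to 11.33 with a median of 11.21 in VIP-treated samples and from 11.15 to 11.75 with a median of 11.31 in untreated samples, and the ratio was -0.14 ± 0.068 (SE, n = 6; limma, adjusted p = 0.35). Its dye effect was 0.023, and the VIP-treated sample was lower on 5 of the 6 arrays, with replicate 2 at 0.15. Without 1 replicate its ratio ran from -0.22 (without replicate 2; limma, adjusted p = 0.085) to -0.074 (without replicate 4). A_52_P438280 gave -0.093 ± 0.074 (SE, n = 6; limma, adjusted p = 0.60), with a range from -0.15 without replicate 1 to -0.0053 without replicate 3. On the matched arrays the 10-spot probe gave -0.15 and A_52_P438280 -0.0030. On the 5 arrays that the pair shares, the brightest minus the 10-spot probe was 0.0065, with a 95% interval of -0.15 to 0.16 (limma, adjusted p = 0.98). The brightest minus A_52_P438280 was -0.16, with a 95% interval of -0.36 to 0.039 (limma, adjusted p = 0.58).

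**Figure D3:**
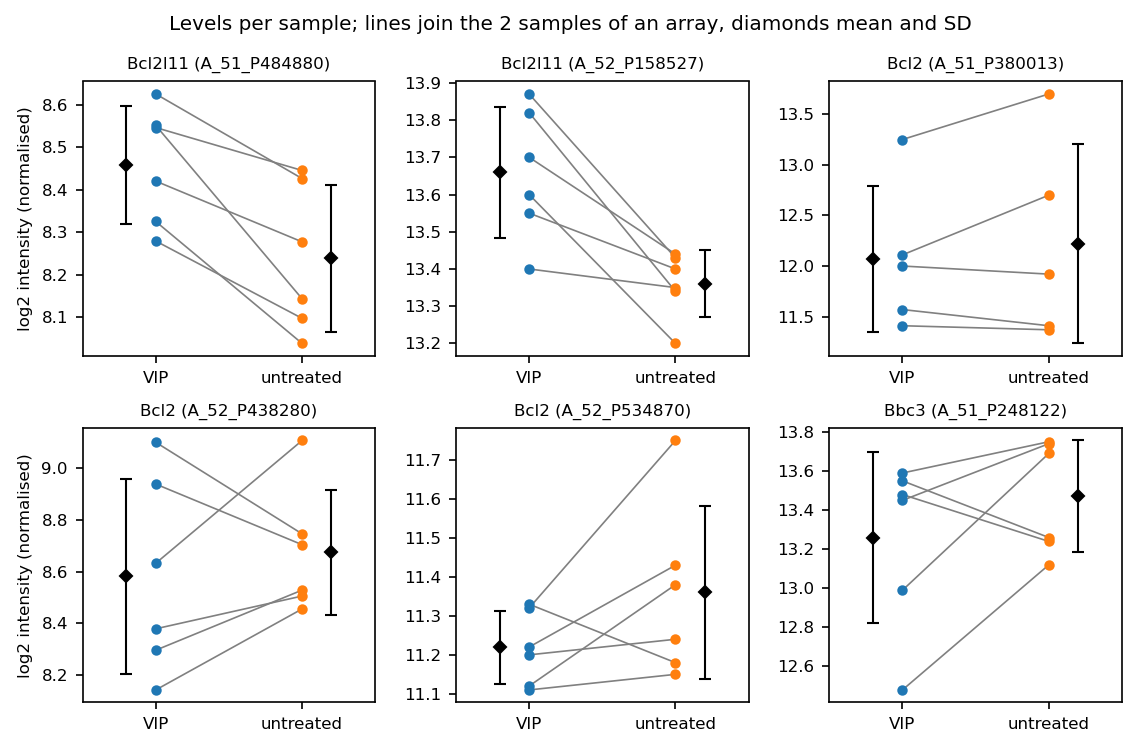
Normalised log2 intensity of the Bcl2l11, Bcl2 and Bbc3 probes in each VIP-treated sample (left) and untreated sample (right), each probe on its own axis, with lines joining the 2 samples of an array and diamonds giving mean and SD. All lines of both Bcl2l11 probes slope down toward the untreated sample; those of the other probes cross, and the Bcl2 probe A_51_P380013 has 5 pairs.

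Bcl2l1, whose main product BCL-XL protects activated T cells, had 3 probes with ratios close to 0. On the brightest, again with 10 spots, the level ran from 9.04 to 10.01 with a median of 9.46 in VIP-treated samples and from 9.10 to 9.86 with a median of 9.42 in untreated samples. Its ratio was 0.039 ± 0.047 (SE, n = 6; limma, adjusted p = 0.76), with a 95% interval of -0.065 to 0.14. The other 2 probes gave 0.023 and 0.015.

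Mcl1 encodes a short-lived survival protein that T cells need at many stages. The brightest probe ran from 15.34 to 16.10 with a median of 15.66 in VIP-treated samples and from 15.39 to 16.31 with a median of 15.76 in untreated samples. Its ratio was -0.090 ± 0.045 (SE, n = 6; limma, adjusted p = 0.37), with a lower VIP-treated sample on 5 of 6 arrays. Without replicate 6 it was -0.055. The second probe, 1.31 kb upstream, gave 0.042 ± 0.053 (limma, adjusted p = 0.78), and 0.0063 without replicate 1 to 0.092 without replicate 3. The difference between them, -0.13 with a 95% interval of -0.27 to 0.0053, was the largest of the family next to that of Bcl2, and it did not pass the test either (limma, adjusted p = 0.51).

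The effectors Bax and Bak1, whose proteins form the pores, were not called. Bax, at 10 spots per array, ran from 11.34 to 11.85 with a median of 11.64 in VIP-treated samples and from 11.56 to 11.80 with a median of 11.75 in untreated samples. Its ratio was -0.058 ± 0.050 (SE, n = 6; limma, adjusted p = 0.64), and -0.0099 without replicate 2. The brightest Bak1 probe ran from 11.27 to 11.68 with a median of 11.42 in VIP-treated samples and from 11.07 to 11.81 with a median of 11.35 in untreated samples. Its ratio was 0.0090 ± 0.062 (SE, n = 6; limma, adjusted p = 0.97), and single arrays ran from -0.34 to 0.46. The second Bak1 probe gave 0.089 ± 0.045 (limma, adjusted p = 0.37), and the VIP-treated sample was higher on 5 of 6 arrays. The 95% intervals reach from -0.17 to 0.052 for Bax and from -0.13 to 0.15 for the brightest Bak1 probe. For the second Bak1 probe the interval is -0.0093 to 0.19. The fitted Bcl2l11 ratios of 0.30 and 0.22 lie outside all of these. The interval of the second Bcl2l11 probe starts at 0.12, however, and so overlaps those of both Bak1 probes.

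The probes with 10 spots show how much of the spread lies within an array. Between 8 and 10 spots of each were used per array, and their log2 ratios had an SD of 0.027 to 0.066 within arrays for Bcl2, 0.043 to 0.087 for Bcl2l1 and 0.033 to 0.14 for Bax. Between arrays, with the dye effect removed, the SD was 0.22 for Bcl2, 0.11 for Bcl2l1 and 0.13 for Bax. The SD within arrays comes from repeat measurements of the same 2 samples, and that between arrays also holds differences between samples.

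**Figure D4:**
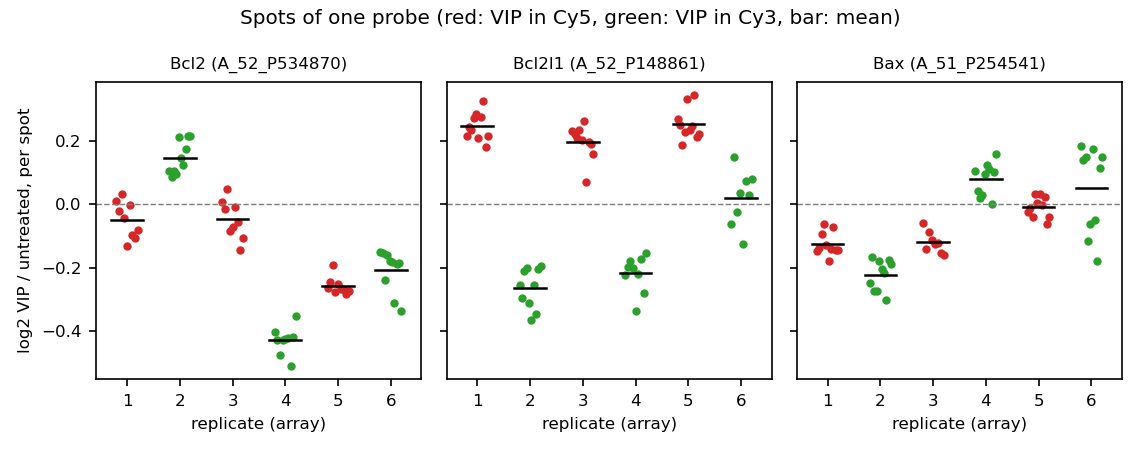
Log2 ratio of VIP-treated over untreated cells for every spot of the 3 family probes with 10 spots, by array, with the mean of each array as a bar and the dye of the VIP-treated sample as colour. Array means ran from -0.43 to 0.15 for Bcl2, from -0.26 to 0.25 for Bcl2l1, where the dye separates them, and from -0.22 to 0.079 for Bax.

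Of the BH3-only genes other than Bcl2l11, Bbc3 had the lowest ratio and none was called. PUMA, its product, is known as a target of p53 and of FOXO3 that acts beside BIM in lymphocytes deprived of cytokine. The level of its probe ran from 12.48 to 13.59 with a median of 13.46 in VIP-treated samples and from 13.12 to 13.75 with a median of 13.48 in untreated samples. The ratio differed with the dye, to which the fit assigned -0.33 (Cy5 over Cy3). It was -0.70, -0.29 and -0.64 on replicates 1, 3 and 5, and 0.28, -0.16 and 0.25 on replicates 2, 4 and 6. Within slides, where the dyes balance, it was -0.21, -0.22 and -0.20. The fitted ratio was -0.21 ± 0.070 (SE, n = 6), with an unadjusted p of 0.012 and an adjusted p of 0.16 (limma), and it was called in 0 of 18 alternative settings. It moved to -0.14 without replicate 4 and to -0.27 without replicate 3 (limma, adjusted p = 0.33 and 0.068), and was -0.30 on the matched arrays (limma, adjusted p = 0.065).

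Pmaip1, the gene of NOXA, a BH3-only protein that binds MCL1, ran from 12.01 to 12.47 with a median of 12.29 in VIP-treated samples and from 11.91 to 12.75 with a median of 12.51 in untreated samples. Its ratio was -0.10 ± 0.051 (SE, n = 5, without replicate 6; limma, adjusted p = 0.36). Bid, whose product links death receptors to mitochondria, ran from 9.45 to 9.91 with a median of 9.78 in VIP-treated samples and from 9.497 to 10.07 with a median of 9.74 in untreated samples. Its ratio was -0.011 ± 0.044 (SE, n = 6; limma, adjusted p = 0.94).

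Bad, whose product binds BCL2 and BCL-XL when it is not phosphorylated, had 2 probes 8.98 kb apart listed on opposite strands of chromosome 19. Both RefSeq promoters of Bad lie on the plus strand. The minus-strand probe, as listed, therefore does not read the Bad transcript in its sense direction. That probe was the brighter, at a mean log2 intensity of 7.32 against 7.23, and so stood for Bad where 1 probe stands for a gene. The probe on the plus strand, at chr19:7016618-7016677, gave -0.018 ± 0.049 and the probe on the minus strand, at chr19:7025594-7025653, gave -0.014 ± 0.045 (SE, n = 6 each; limma, adjusted p = 0.91 and 0.93).

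**Figure D5:**
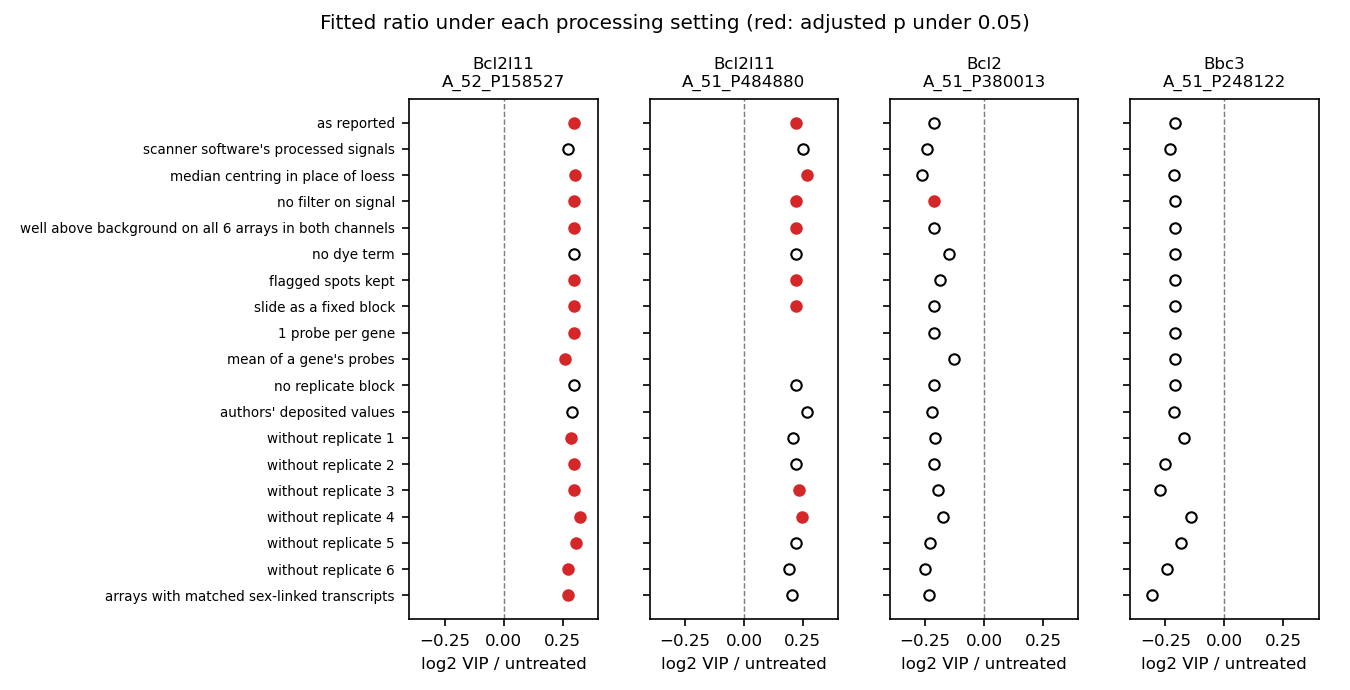
Fitted log2 ratio of VIP-treated over untreated cells for both Bcl2l11 probes, the brightest Bcl2 probe and the Bbc3 probe under each processing setting, filled red where the adjusted p is under 0.05. The second Bcl2l11 probe has no point where 1 value stands for a gene. The brighter Bcl2l11 probe is red in 14 of 18 alternative settings, the brightest Bcl2 probe in 1, and the Bbc3 probe in 0.

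Genes around the family were read by their brightest probe, where 339 of 19197 genes (1.77%) were called higher and 227 (1.18%) lower, together 2.95%, with a median ratio of -0.0017 on the log2 scale. Over these genes 16.4% had an unadjusted p under 0.05, and 9395 had a ratio above 0. Of 17 other BCL2 family genes 14 were on the array and 13 passed the filter, of which 0 were called and 0 had an unadjusted p under 0.05 (limma). Their median ratio was 0.041. The lowest p values were those of Bcl2a1c, at 0.11 (limma, adjusted p = 0.33), and of Bnip3l, whose product marks mitochondria for removal, at -0.062 (limma, adjusted p = 0.54). Bcl2a1c is one of several near-identical mouse copies of the survival gene A1, and its probe could read more than 1 copy. The probe of another copy, Bcl2a1b, gave -0.0067 (limma, adjusted p = 0.97). Of 18 genes of mitochondrial apoptosis and the caspases 0 were called, with 3 at an unadjusted p under 0.05 (limma), or 16.7%, close to the 16.4% of all genes. Their median ratio was 0.048, with 15 of the 18 above 0. The lowest p values were those of Vdac1, a channel of the outer mitochondrial membrane, at 0.13 (limma, adjusted p = 0.13), and of the executioner caspase gene Casp6 at 0.13 (limma, adjusted p = 0.16).

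Of 12 genes of the death receptor pathway, with a median ratio of 0.048, 1 (8.33%) was called. At an unadjusted p under 0.05 there were 4, or 33.3% (limma). Over all genes these shares were 2.95% and 16.4%. Tnfrsf1b, the gene of the TNF receptor TNFR2, was higher with VIP at 0.24 ± 0.051 (SE, n = 6; limma, adjusted p = 0.033). It was not called without replicate 1, 4, 5 or 6 (limma, adjusted p = 0.13, 0.095, 0.14 and 0.11) or on the matched arrays, at 0.25 (limma, adjusted p = 0.071). Of 18 tested among 19 listed regulators of the family, with a median ratio of -0.020, 1 (5.56%) was called. At an unadjusted p under 0.05 there were 5, or 27.8% (limma). The called gene, Pim1, encodes a kinase that phosphorylates BAD and was higher with VIP on 6 of 6 arrays at 0.24 ± 0.040 (limma, adjusted p = 0.012). It was not called without replicate 1 or 5 (limma, adjusted p = 0.051 and 0.067) or on the matched arrays, at 0.23 (limma, adjusted p = 0.057). The related genes Pim2 and Pim3 were not called. Pim2 had a ratio below 0, at -0.27 ± 0.068 (SE, n = 6; limma, adjusted p = 0.067), and Pim3 was at 0.035 (limma, adjusted p = 0.79). Of 11 genes of the interleukin receptors that share the common gamma chain and their signalling, with a median ratio of 0.067, 2 (18.2%) were called. At an unadjusted p under 0.05 there were 4, or 36.4% (limma). Il4ra, the interleukin 4 receptor gene, was higher on 6 of 6 arrays at 0.42 ± 0.070 (limma, adjusted p = 0.011), and not called on the matched arrays, at 0.37 (limma, adjusted p = 0.065). Il7r, the receptor chain through which interleukin 7 maintains BCL2 in resting T cells, was lower on the 5 arrays that measured it, at -0.63 ± 0.066 (limma, adjusted p = 0.0015), and called on the matched arrays, at -0.69 (limma, adjusted p = 0.00016). Of 18 alternative settings Il7r was called in 15, Il4ra in 13, Pim1 in 11 and Tnfrsf1b in 7.

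RefSeq promoters of GRCm38.p6, from 250 bases before to 50 after a transcript start, were read for 9 of the 10 genes, 15 promoters in all. The full cAMP response element, TGACGTCA, which is its own reverse complement, was in 0 of them and in 1.79% of all 32851 promoters. Its half-site TGACG, read on both strands and contained in the full element, was in 3 of the 15, those of Bcl2, Mcl1 and Bbc3, and in 20.81% of all. The forkhead element TGTTTAC, on either strand, was in 1 promoter each of Bcl2l11 and Bbc3, and in 3.65% of all. Of the 2 Bcl2l11 promoters the one with the forkhead element is printed, since that gene carried the called difference, and the other, at chr2:128127325-128127624, held none of the 3 motifs. The printed one lies on the plus strand at chr2:128125788-128126087 of GRCm38.p6, with the forkhead element in capitals as its reverse complement, its first base 227 bases before the start.
Bcl2l11 promoter: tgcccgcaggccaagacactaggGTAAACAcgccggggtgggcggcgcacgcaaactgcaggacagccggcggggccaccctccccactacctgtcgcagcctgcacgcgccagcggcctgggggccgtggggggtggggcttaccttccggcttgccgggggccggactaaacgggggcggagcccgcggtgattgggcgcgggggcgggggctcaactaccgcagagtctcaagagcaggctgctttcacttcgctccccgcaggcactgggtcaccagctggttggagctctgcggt
A match of letters describes the window and was not tested against binding.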

How the data were processed

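The 6 arrays were of 1 Agilent mouse design, and per the labels 250 ng of total RNA was the input to labelling. The deposited scanner tables were made with Agilent Feature Extraction 9.5.1.1, per the file headers, with probe positions on mm9, and hold intensity values for each spot and dye. The deposited value table holds log10 ratios that equal the scanner software's, with the sign turned on replicates 2, 4 and 6 and a median of 0 in each column. Red and green mean intensity was corrected for local background (normexp, offset 50), normalised within arrays by loess without control spots, and averaged over the spots of a probe. Probes had to be well above background on at least 3 of 6 arrays in the channel of either treatment and measured on 2 or more arrays with VIP in either dye. The log2 ratios were fitted with limma 3.58.1 in R 4.3.3 with a treatment and a dye term. Replicates are biological per the labels, each array pairs 1 VIP-treated with 1 untreated sample, and p-values are 2-sided. The pairing is by array, and on replicates 3 and 6 the paired samples differed in sex-linked transcripts. Levels are log2 channel values after Aquantile normalisation and were compared within a probe only. The brightest kept probe stood for a gene. All member probes were named. From each other list, the called genes up to 4 by lowest p, or the 2 of lowest p where none was called, were named. Pim2, Pim3, Bcl2a1b and the marker S100a9 were named outside this rule, after the values were seen. The members and lists were chosen with earlier results of these data known. The comparison between probes of 1 gene and the use of outlier spots in summed marker levels were added after the data were seen. The code was tested on simulated data. The 18 alternative settings changed the background correction, the loess, the filter on signal, the dye term, the outlier spots, a slide term, the probes per gene, the pairing, the source of ratios or the arrays used. In the setting that averages a gene's probes, the mean was counted under its brightest probe. The number of arrays limits the precision, with a median SE of 0.048 on the log2 scale. RefSeq supplied the promoters and matched the accessions of 60.3% of probes. Matched probes were grouped into genes by their RefSeq symbol and the others by the name in the array design. The 18 family probes were chosen by the name in the array design.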

Additional observations from a re-analysis of the deposited data

Results flagged for a closer look

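In 1 of 54 groups of 5 or 6 levels or ratios tested over the family probes, a sample lay far from the others by Dixon's test at the 95% level, which chance does in about 5% of groups. It was the VIP-treated sample of replicate 1 on the minus-strand Bad probe, at a log2 level of 6.94, against 7.31 to 7.49 in the other VIP-treated samples. The untreated sample of the same array was also the lowest of its group, at 6.98, and the log2 ratio on that array was -0.038.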

How the results depend on the processing

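Over the 18 probes and all alternatives, 275 values kept their direction and their side of the threshold, 13 lost a call, 1 gained one and 19 changed sign, and the cause was not tested. The array had 44 called probes with processed signals of the scanner software, 58 with the authors' deposited values, 164 without a dye term, 5 without the replicate block that pairs the samples of an array, and 296 to 591 without 1 replicate. Called family probes higher with VIP were 0 with the processed signals, with the deposited values, without a dye term and without the replicate block, 1 with 1 probe per gene, with the mean of a gene's probes and on the arrays matched in sex-linked transcripts, and 1 to 2 without 1 replicate. With slide as a fixed block 979 probes were called, with detection required on all 6 arrays in both channels 766, with median centring 530 and with outlier spots kept 567, each with 2 family probes higher. Without a filter on signal 1 family probe, of Bcl2, was called lower. All sign changes were of probes that lay near 0. Bak1 came to -0.014 with the processed signals and -0.016 on the matched arrays. Bcl2l1 A_51_P299454 came to -0.0080 with median centring, -0.10 with outlier spots kept and -0.025 on the matched arrays, and Bcl2l1 A_52_P510877 and Bid to -0.0049 and 0.017 with median centring. Without 1 replicate the Bak1 ratio ran from -0.056 to 0.057, Bad from -0.054 to 0.011 and from -0.036 to 0.018, Bid from -0.037 to 0.018, and the Bcl2l1 probes from -0.0096 to 0.078, -0.0043 to 0.067 and -0.0089 to 0.047. Every family probe was well above background on all arrays.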

Other observations

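A further probe that the array design describes as Bcl-2-like protein 11 but names by an Ensembl transcript, and so outside the chosen set, was looked up after the values were seen. It was well above background in both channels of all 6 arrays, with a mean log2 level of 7.55 in VIP-treated and 7.36 in untreated samples. Its ratio was 0.18 ± 0.048 (SE, n = 6; limma, unadjusted p = 0.0030, adjusted p = 0.075), and the VIP-treated sample was higher on 6 of 6 arrays. It was not called.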
